A study of Homo sapiens with 6 samples.

Results

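The later steps of mitochondrial fatty acid β-oxidation, and the thiolases that end each turn of it, are described here in U87, an established human glioblastoma cell line, through 10 genes chosen by symbol from the 32299 genes of the deposited table: HADHA, HADHB, HADH, ECHS1, ECI1, ECI2, DECR1, ACAA2, HSD17B10 and ACAT1. All 10 were found and all 10 passed the filter on low counts, as did 17927 genes in all. The study sequenced messenger RNA of 3 libraries of U87 cells labelled as overexpressing tau and 3 libraries of U87 cells labelled as transfected with a control vector, and its title names β-oxidation and senescence in glioma. They are called tau-labelled and control-labelled libraries here, with n = 3 each throughout. The vector, the tau isoform, the time after transfection and the number of separate cultures behind the libraries were not given in the sources used here, so a p-value here speaks of the spread between 3 libraries of a label, and that spread may be technical.

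In each turn of β-oxidation an acyl-CoA dehydrogenase places a double bond in the fatty acyl-CoA, a hydratase adds water across it, a hydroxyacyl-CoA dehydrogenase oxidises the product and a thiolase cuts off acetyl-CoA. For long chains the hydratase, dehydrogenase and thiolase sit together in the mitochondrial trifunctional protein of the inner membrane, and for shorter chains they are separate enzymes of the matrix. Unsaturated fatty acids also need isomerases and a reductase, and several of these enzymes act in the breakdown of branched-chain amino acids and in ketone body metabolism as well. In the pathway annotation of the deposited table, 8 of the 10 genes belonged to fatty acid degradation and 7 to valine, leucine and isoleucine degradation.

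Total counts per library ran from 58229083 to 65512119. MAPT, the gene of tau, went against the labels, with counts of 145, 150 and 176 in the tau-labelled and of 279, 391 and 345 in the control-labelled libraries 1, 2 and 3 (log2 fold change -1.20, SE 0.21, edgeR adjusted p = 0.00151). Every direction below is therefore that of the libraries as labelled. Of the 7 glioma and astrocyte markers, 1 rose (VIM), 3 fell and the others did not pass or were too low to test. VIM and CD44 were abundant (1784 and 94.7 FPKM in tau-labelled, against 1346 and 84.6 FPKM in control-labelled libraries). CHI3L1 fell, at 45.6 FPKM in tau-labelled and 277.4 FPKM in control-labelled libraries, and so did NES, at 2.95 FPKM in tau-labelled and 12.1 FPKM in control-labelled libraries (log2 fold changes of -2.72 and -2.15). GFAP also fell, at 0.0595 FPKM in tau-labelled and 0.136 FPKM in control-labelled libraries, SOX2 had 7 counts over the tau-labelled and 12 over the control-labelled libraries, and S100B had 5 counts over the tau-labelled libraries and was at 0 in the control-labelled ones. The 3 endothelial markers all fell and summed to 0.403 to 0.449 FPKM in tau-labelled and 2.34 to 2.74 FPKM in control-labelled libraries. Of 3 epithelial markers 1 fell (sums of 0.150 to 0.201 FPKM in tau-labelled and 0.682 to 0.860 FPKM in control-labelled libraries). ITGAM, an immune marker, had 82 counts over the tau-labelled and 3 over the control-labelled libraries. The neuron markers summed to 0.771 to 0.968 FPKM in tau-labelled and 0.780 to 0.939 FPKM in control-labelled libraries. Of these 2 were tested and did not pass. The part of all these markers in the results below was not tested. In bulk RNA, fewer cells of a type and less RNA per cell cannot be told apart.

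Promoter sequence is shown for the genes whose windows bear on points made below: HADHA and HADHB, which are transcribed away from each other, ECI1, which fell, and HSD17B10 and ACAT1, whose windows were the only ones among these genes to hold the letters ACGTG. RefSeq promoter windows (GRCh38.p14, 250 bases before to 50 after a start) were found for 9 of the 10 genes. The RefSeq starts of HADHA (minus strand) and HADHB (plus strand) lie 307 bases apart. Stretches in an exon of a protein-coding GENCODE 29 transcript are left out, which leaves 21 bases between HADHA and HADHB. Capitals mark matches, on either strand, to GGGCGG of the GC box, to CCAAT of the box of that name, to ACGTG of the hypoxia core or to its other form, GCGTG.
HADHB, shared with HADHA, plus strand, chr2:26244727-26244747: ccggccccttagccctgcccc
ECI1, minus strand, chr16:2251615-2251684: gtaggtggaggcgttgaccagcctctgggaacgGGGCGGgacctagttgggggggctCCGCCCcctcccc
HSD17B10, minus strand, chrX:53434377-53434626: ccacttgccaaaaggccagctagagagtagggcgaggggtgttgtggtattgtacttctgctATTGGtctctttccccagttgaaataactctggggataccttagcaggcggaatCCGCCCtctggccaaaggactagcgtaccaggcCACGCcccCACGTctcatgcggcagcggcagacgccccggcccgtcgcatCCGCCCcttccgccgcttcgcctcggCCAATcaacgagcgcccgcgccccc
ACAT1, plus strand, chr11:108121317-108121515: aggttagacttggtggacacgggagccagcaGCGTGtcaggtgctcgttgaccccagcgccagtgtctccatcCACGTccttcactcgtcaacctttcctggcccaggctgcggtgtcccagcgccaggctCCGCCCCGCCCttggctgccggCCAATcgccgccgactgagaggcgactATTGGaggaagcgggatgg

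Among whole windows, GGGCGG was found in 8 of the 9 genes (10 of their 13 windows) and in 45% of all 35116 RefSeq windows. ACGTG, the core of the site bound by hypoxia-inducible factors, was found in 2 of 9 genes (3 of 13 windows) and 21.4% of all windows. GCGTG, its other form, was found in 5 of 9 genes (7 of 13 windows) and 36.5% of all windows. CCAAT was found in 3 of 9 genes (4 of 13 windows) and 34.6% of all windows. A gene with more than 1 window was counted if any of them matched. The letters TNAAGGTCA of an estrogen-related receptor site (0.951% of all windows) and CACGTG, the E-box (7.26%), were in none of the 9 genes' windows. CACGTG contains ACGTG. These are matches of letters in a short window and were not tied to the counts. The windows were rich in CpG: 12 of 13, counting alternative starts, held more CpG than the median window, which held 14.

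Of the 10 genes, 4 fell in the tau-labelled libraries and none rose, by edgeR's quasi-likelihood test with a Benjamini-Hochberg adjusted p below 0.05 over all genes tested. Among all genes tested 42.7% passed, 21.4% fell and 21.3% rose. The genes that fell were DECR1, ECI1, ACAA2 and ECHS1, and the same 4 had an unadjusted p below 0.05. The median log2 fold change was -0.15 over the 10 genes and 0.00439 over all genes tested. The labels did not overlap in FPKM for 4 of the 10 genes, against 56.1% of all genes. FPKM of the tau-labelled libraries lay wholly below that of the control-labelled ones for 3 of the 10 genes (23.6% of all genes) and wholly above for 1 (32.5% of all genes). The log2 fold changes are those of edgeR's fit, which scales libraries by TMM, and are lower than ratios of the FPKM printed beside them, which carries no such scaling.

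**Figure D1:**
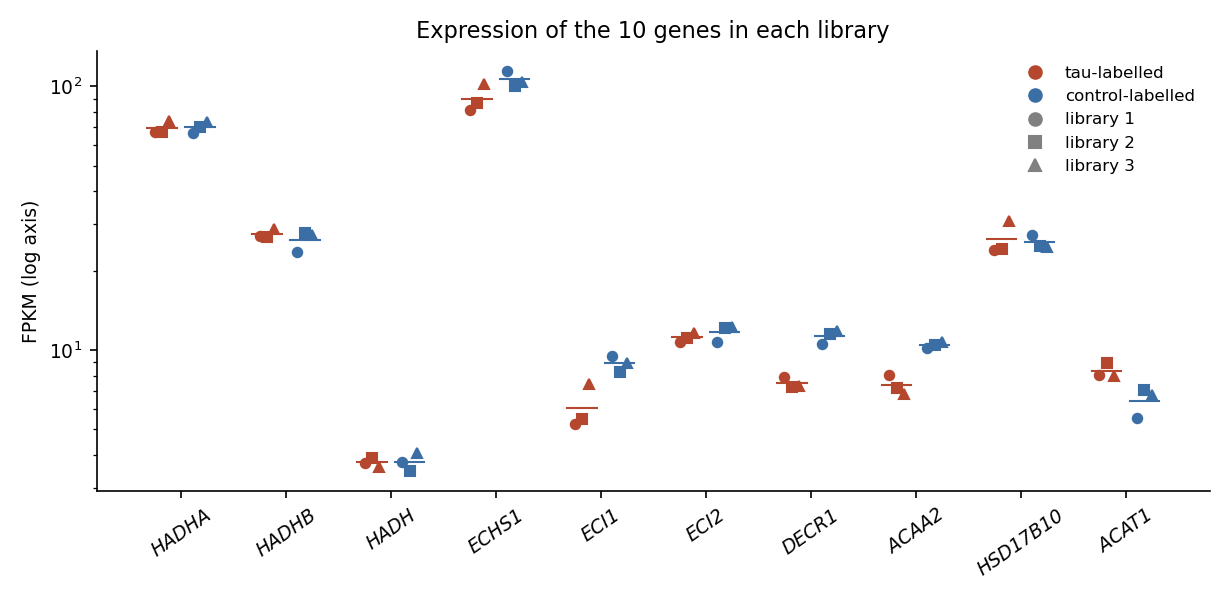
FPKM of each of the 10 genes (log axis) in the 3 tau-labelled (red, left) and 3 control-labelled libraries (blue, right), with marker shape for the library number and bars for means. DECR1, ACAA2 and ECI1 have every tau-labelled library below every control-labelled one, ACAT1 has the opposite order, and the other genes overlap.

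DECR1 and ACAA2 fell in the tau-labelled libraries under each of the 16 other settings tried. DECR1 encodes the mitochondrial dienoyl-CoA reductase, which reduces the conjugated double bonds that arise when polyunsaturated fatty acids are shortened (ENSG00000104325, chromosome 8, 90001405 to 90053633, plus strand, GRCh38). It had 7.93, 7.22 and 7.34 FPKM in tau-labelled libraries 1, 2 and 3, against 10.6, 11.5 and 11.8 FPKM in control-labelled libraries 1, 2 and 3. The groups were well apart, and the spread within each was small beside the gap. By edgeR's fit DECR1 was 1.63-fold lower (log2 fold change -0.71, SE 0.10, edgeR adjusted p = 0.000618), with values from -0.97 to -0.56 over the other settings. The first 1824 bases of its deposited interval overlap NBN, a DNA repair gene on the other strand, which rose (log2 fold change 0.67, SE 0.14, edgeR adjusted p = 0.00343). No source used here says if the counting was stranded, so reads of this stretch may have gone to either gene.

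ACAA2 encodes the mitochondrial thiolase of medium-chain and shorter acyl-CoA (ENSG00000167315, chromosome 18, 49782164 to 49813953, minus strand). It had 8.03, 7.17 and 6.83 FPKM in tau-labelled libraries 1, 2 and 3, against 10.2, 10.4 and 10.7 FPKM in control-labelled libraries 1, 2 and 3. Again no library of one label reached into the range of the other. ACAA2 was 1.54-fold lower (log2 fold change -0.625, SE 0.11, edgeR adjusted p = 0.00137). The start of the long non-coding RNA SNHG22 lies 8 bases from that of ACAA2 on the other strand, with 8 counts over the tau-labelled and 30 counts over the control-labelled libraries.

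Of the isomerases ECI1 passed and ECI2 did not. ECI1, a mitochondrial enoyl-CoA isomerase that moves a double bond into the position the hydratase can use (ENSG00000167969, chromosome 16, 2239402 to 2251591, minus strand), had 5.24, 5.47 and 7.46 FPKM in tau-labelled libraries 1, 2 and 3, against 9.52, 8.28 and 8.92 FPKM in control-labelled libraries 1, 2 and 3. Tau-labelled library 3 stood between the other tau-labelled libraries and the control-labelled ones. ECI1 was 1.59-fold lower (log2 fold change -0.67, SE 0.17, edgeR adjusted p = 0.00978), a call that was lost with offsets for transcript GC and length (-0.26, edgeR adjusted p = 0.0649). ECI2, the isomerase shared by mitochondria and peroxisomes (ENSG00000198721, chromosome 6, 4115693 to 4135591, minus strand), ran from 10.8 to 11.6 FPKM in tau-labelled and from 10.7 to 12.3 FPKM in control-labelled libraries, and did not pass (log2 fold change -0.18, 95% interval -0.42 to 0.06, edgeR adjusted p = 0.198). ECI2-DT, a non-coding RNA that starts 481 bases from ECI2 on the other strand, had 52 counts over the tau-labelled and 21 over the control-labelled libraries and did not pass (edgeR adjusted p = 0.214).

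ECHS1, the short-chain enoyl-CoA hydratase of the matrix (ENSG00000127884, chromosome 10, 133362485 to 133373354, minus strand), fell by the narrowest margin. It had 81.2, 86.3 and 101.9 FPKM in tau-labelled libraries 1, 2 and 3, against 114.7, 100.5 and 104.3 FPKM in control-labelled libraries 1, 2 and 3. The groups overlapped, because tau-labelled library 3 lay above control-labelled library 2. The log2 fold change was -0.36 (SE 0.13, edgeR adjusted p = 0.0471). This call was lost in 10 of 16 other settings, among them leaving out tau-labelled library 1 (adjusted p = 0.187) or 2 (0.158) and control-labelled library 1 (0.134), 2 (0.0814) or 3 (0.0521), and in an 11th the direction turned. Over all 16 the adjusted p ran from 0.00586 to 0.187.

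The genes of the trifunctional protein stood at nearly the same level under both labels. HADHA encodes its α subunit, with the hydratase and the long-chain hydroxyacyl-CoA dehydrogenase (ENSG00000084754, chromosome 2, 26190635 to 26244632, minus strand), and had 67.3, 67.0 and 74.1 FPKM in tau-labelled libraries 1, 2 and 3, against 66.7, 70.1 and 73.3 FPKM in control-labelled libraries 1, 2 and 3. Its log2 fold change was -0.13 (95% interval -0.34 to 0.09, edgeR adjusted p = 0.326). HADHB encodes the β subunit, the long-chain thiolase (ENSG00000138029, chromosome 2, 26243170 to 26290465, plus strand), and had 27.0, 26.9 and 28.9 FPKM in tau-labelled libraries 1, 2 and 3, against 23.5, 27.8 and 27.2 FPKM in control-labelled libraries 1, 2 and 3. The ranges overlapped for both subunits. The log2 fold change of HADHB was -0.04 (95% interval -0.27 to 0.20, edgeR adjusted p = 0.802), and turned to 0.07 with library size alone and 0.08 with limma on FPKM. The intervals leave room for a fall of HADHA by up to 0.34 and of HADHB by up to 0.27 on the log2 scale. The deposited intervals of HADHA and HADHB overlap by 1463 bases on opposite strands. As the use of strand in counting was not given, reads of this stretch may have gone to either gene. The same limit holds for the ratio of HADHB over HADHA below. The processed copies HADHAP1, HADHAP2 and HADHBP1 had no more than 6 counts over either label, so few reads were counted there.

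HADH, the short-chain hydroxyacyl-CoA dehydrogenase of the matrix (ENSG00000138796, chromosome 4, 107989714 to 108035241, plus strand), ran from 3.61 to 3.89 FPKM in tau-labelled and from 3.48 to 4.05 FPKM in control-labelled libraries. It did not pass (log2 fold change -0.12, 95% interval -0.36 to 0.115, edgeR adjusted p = 0.387). HSD17B10 encodes another short-chain hydroxyacyl-CoA dehydrogenase, which acts in isoleucine breakdown and is also a subunit of mitochondrial RNase P (ENSG00000072506, chromosome X, 53431258 to 53434367, minus strand). It had 24.0, 24.3 and 30.8 FPKM in tau-labelled libraries 1, 2 and 3, against 27.3, 24.9 and 24.7 FPKM in control-labelled libraries 1, 2 and 3. Tau-labelled library 3 was the highest of the 6 and the other tau-labelled libraries were the lowest. HSD17B10 did not pass (log2 fold change -0.07, 95% interval -0.39 to 0.24, edgeR adjusted p = 0.701), and its direction turned in 5 of 16 other settings.

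ACAT1, the mitochondrial acetoacetyl-CoA thiolase of isoleucine breakdown and ketone body metabolism (ENSG00000075239, chromosome 11, 108116695 to 108147603, plus strand), was the gene with a positive log2 fold change. It had 8.04, 8.96 and 7.97 FPKM in tau-labelled libraries 1, 2 and 3, against 5.51, 7.05 and 6.74 FPKM in control-labelled libraries 1, 2 and 3. The tau-labelled libraries lay above the control-labelled ones without overlap. The difference did not pass (log2 fold change 0.26, SE 0.12, 95% interval -0.01 to 0.52, edgeR adjusted p = 0.110). It was called with library size alone (0.37, adjusted p = 0.0420) and with limma on log2(FPKM + 0.5) (0.35, adjusted p = 0.0335), settings in which the median of all genes was 0.12 and 0.15, and was -0.01 (adjusted p = 0.948) with offsets for GC content and length. The thiolases thus gave a log2 fold change of -0.625 for ACAA2, -0.04 for HADHB and 0.26 for ACAT1.

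GC content moved with several of these values. Transcripts of ECI1 (64.6% GC), ECHS1 (60.3%) and HSD17B10 (57.1%) lay above 55% GC, and the other 7 genes between 42.3% and 48.8%. The same 3 genes were the ones with tau-labelled library 3 furthest above the mean of tau-labelled libraries 1 and 2, by 0.53, 0.34 and 0.41 on the log2 CPM scale. Across 17547 genes, which are not independent replicates, Spearman's rho between GC content and this deviation was 0.40 for tau-labelled library 3, and it was 0.47 for the matching deviation of control-labelled library 1. For the other libraries it was -0.11 and -0.40 in tau-labelled 1 and 2, and -0.03 and -0.48 in control-labelled 2 and 3. Between GC content and the log2 fold change itself rho was -0.32. Of genes above 55% GC 33.2% fell, of those above 45% and up to 55% GC 21.1% fell, and of those up to 45% GC 9.65% fell. Of the genes that fell, DECR1 (42.3% GC) lay in the lowest GC class, ACAA2 (45.9%) in the middle one and ECI1 and ECHS1 in the highest. What GC content contributed to the fall of each gene was not tested.

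With offsets for GC content and length in the fit, 4 of the 10 genes again fell and 1 rose, where 20.8% of all genes fell and 27.2% rose, but only DECR1 (-0.97) and ACAA2 (-0.73) were shared with the fit without offsets. ECI1 moved to -0.26 (edgeR adjusted p = 0.0649) and ECHS1 to 0.18 (edgeR adjusted p = 0.108). HSD17B10 moved to 0.35 and was called higher (edgeR adjusted p = 0.00825), while HADH (-0.31, edgeR adjusted p = 0.0385) and ECI2 (-0.27, edgeR adjusted p = 0.0416) were called lower. Without tau-labelled library 3 and control-labelled library 1, which lay together on the second principal component, 6 genes fell and none rose, where 21.4% of all genes fell and 20.6% rose: the 4 above, HADHA (-0.21, edgeR adjusted p = 0.0273) and ECI2 (-0.27, edgeR adjusted p = 0.0383). The part of GC content in these differences was not tested further.

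**Figure D2:**
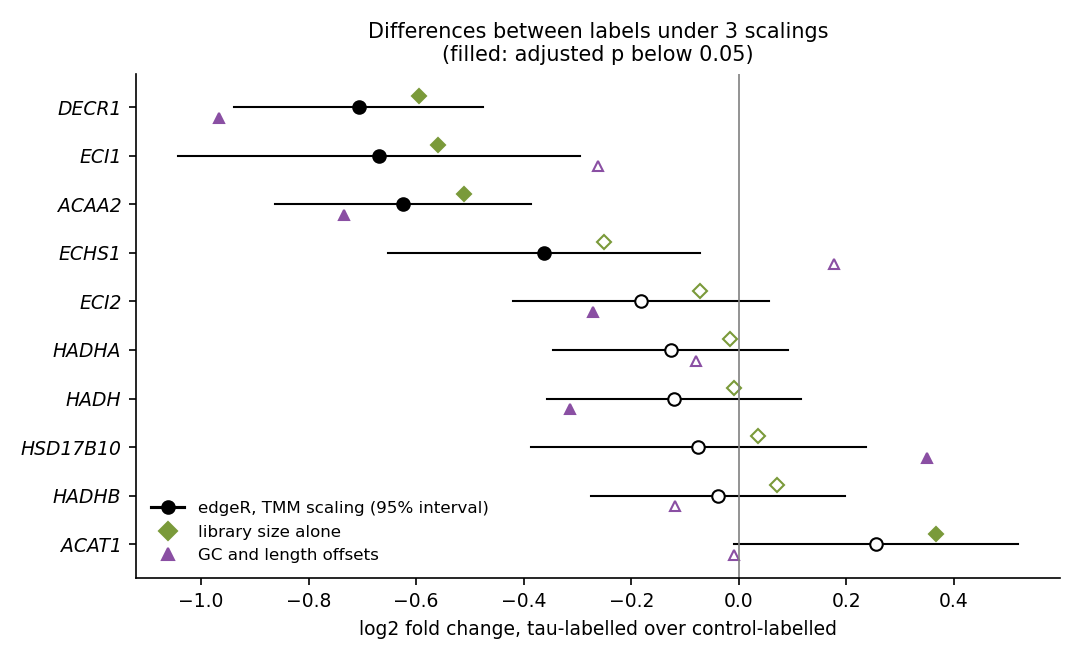
Log2 fold change, tau-labelled over control-labelled, of the 10 genes by edgeR with TMM scaling (circles, 95% intervals), with library size alone (diamonds) and with GC and length offsets (triangles), filled where the adjusted p was below 0.05. DECR1 and ACAA2 are filled in all 3 and HADHA in none, while the other 7 genes change side or call in at least 1.

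**Figure D3:**
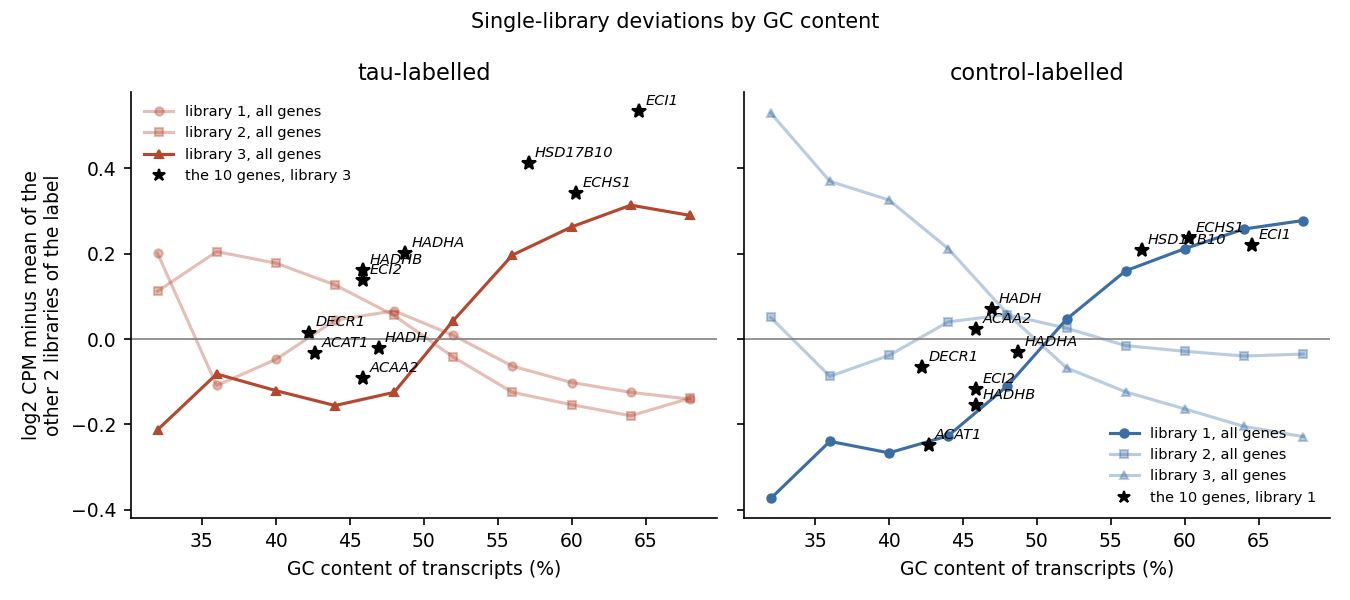
Difference in log2 CPM between a library and the mean of the other libraries of its label, as the median of all genes in bins of GC content (lines), and for the 10 genes in tau-labelled library 3 (left, stars) and control-labelled library 1 (right, stars). ECI1, HSD17B10 and ECHS1 sit at the GC-rich end, where both libraries run above the others of their label.

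Levels per length put ECHS1 highest, at 89.8 ± 10.8 FPKM in tau-labelled and 106.5 ± 7.36 FPKM in control-labelled libraries (SD), followed by HADHA, HADHB and HSD17B10 under both labels. HADHB and HSD17B10 overlapped over the libraries of each label. HADH was lowest, at 3.75 ± 0.141 FPKM in tau-labelled and 3.76 ± 0.289 FPKM in control-labelled libraries. Between these lay ECI2, ACAT1, DECR1, ACAA2 and ECI1 in tau-labelled libraries, of which DECR1 overlapped ACAA2 and ACAA2 overlapped ECI1. In control-labelled libraries the order was ECI2, DECR1, ACAA2, ECI1 and ACAT1, with ECI2 overlapping DECR1 and DECR1 overlapping ACAA2. ACAT1 thus stood sixth of the 10 in tau-labelled and ninth in control-labelled libraries.

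This order rests on the length behind FPKM. The length that the deposited FPKM implies lay between 0.850 and 1.15 times the merged exons of all GENCODE 29 transcripts for 8 of the 10 genes, and at 1.55 times for DECR1 and 2.73 times for HSD17B10. These merged exons for HADH span 12086 bases, 6.32 times its longest principal transcript of 1912 bases, and for ECHS1 they equal its single transcript of 1617 bases. In CPM per kilobase of the longest principal transcript, HADHA was highest at 106.4 ± 5.81 in tau-labelled and 107.6 ± 5.30 in control-labelled libraries (SD). In tau-labelled libraries HSD17B10 stood at 83.3 ± 12.0 on that scale, ECHS1 at 76.2 ± 8.95 and HADHB at 61.99 ± 2.39, and in control-labelled libraries HSD17B10 stood at 81.2 ± 4.37, ECHS1 at 90.6 ± 6.13 and HADHB at 59.0 ± 5.38. HADH, at 27.2 ± 1.12 in tau-labelled and 27.3 ± 2.13 in control-labelled libraries, moved above ECI1 and ACAA2. ECI1 stood at 13.6 ± 2.69 in tau-labelled and 19.97 ± 1.36 in control-labelled libraries, and ACAA2 at 11.6 ± 0.987 in tau-labelled and 16.5 ± 0.425 in control-labelled libraries. On this scale ACAA2 was the lowest of the 10 under both labels, and ACAT1 ranked 7 in tau-labelled and 8 in control-labelled libraries. The length model has no bearing on the comparison of one gene between labels, except in the fit with GC and length offsets. That fit used the length implied by the deposited FPKM.

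Ratios within a library need no scaling of the libraries, and they were not adjusted for GC content. The size of each ratio rests on the lengths behind FPKM, while its log2 difference between labels does not. Per kilobase of the longest principal transcript, ECHS1 lay below HADHA under both labels. It stood at 76.2 against 106.4 for HADHA in tau-labelled libraries, and at 90.6 against 107.6 in control-labelled libraries. ACAA2 over HADHB, the shorter-chain against the long-chain thiolase, was 0.298, 0.267 and 0.236 in tau-labelled libraries 1, 2 and 3, against 0.434, 0.375 and 0.393 in control-labelled libraries 1, 2 and 3, a log2 difference of -0.59 (SE 0.11). ECI2 over ECI1 was 2.06, 2.04 and 1.56 in the tau-labelled libraries in that order, against 1.12, 1.47 and 1.38 in the control-labelled ones, a log2 difference of 0.51 (SE 0.18). ECHS1 over HADHA was 1.21, 1.29 and 1.38 in the tau-labelled libraries, against 1.72, 1.43 and 1.42 in the control-labelled ones, a log2 difference of -0.24 (SE 0.10). The labels did not overlap in these 3 ratios, each with a two-sided exact permutation p of 0.1, the smallest that 3 against 3 allows, and 0.167 adjusted over the 5 ratios compared.

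The ratio of the trifunctional subunits, HADHB over HADHA, was 0.397 ± 0.00620 in tau-labelled and 0.373 ± 0.0224 in control-labelled libraries (SD), with overlap (log2 difference 0.09, SE 0.05, exact permutation p = 0.2, adjusted p = 0.25). HADH over HADHA, the short-chain against the long-chain dehydrogenase, was 0.0542 ± 0.00486 in tau-labelled and 0.0537 ± 0.00359 in control-labelled libraries (SD, log2 difference 0.01, SE 0.10, exact permutation p = 0.9). The design could not reach p below 0.1 for any ratio. In the fit with GC and length offsets the log2 fold changes of ECI2 and ECI1 were -0.27 and -0.26, nearly equal, and those of ECHS1 and HADHA were 0.18 and -0.08, the opposite order to the ratio, while those of ACAA2 and HADHB were -0.73 and -0.12.

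**Figure D4:**
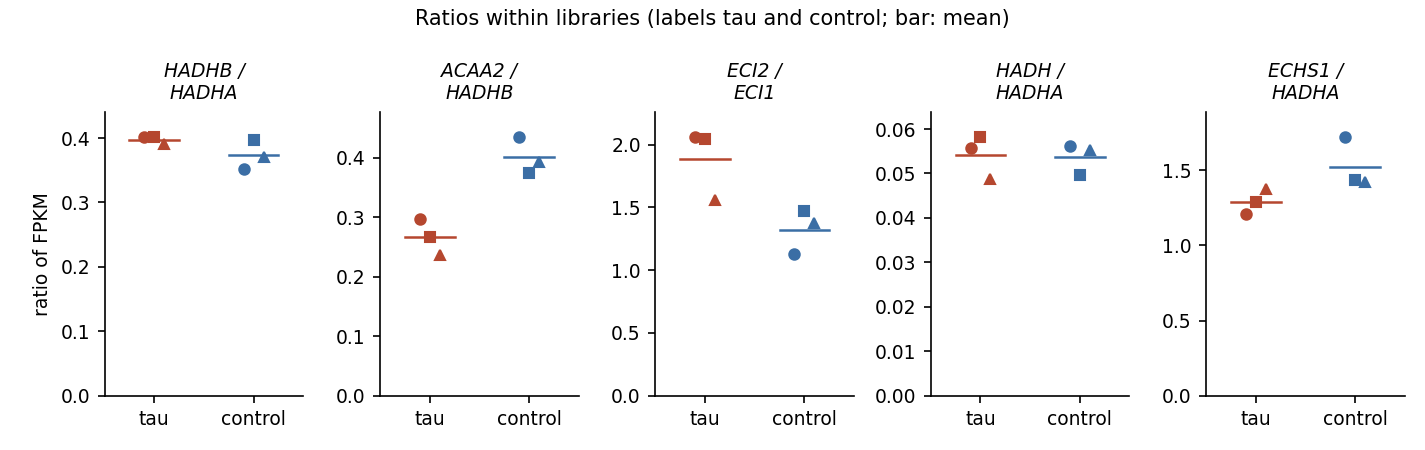
Ratios of FPKM within each library for 5 pairs of genes, tau-labelled left and control-labelled right, with marker shape for the library number and bars for means; each axis starts at 0. ACAA2 over HADHB, ECI2 over ECI1 and ECHS1 over HADHA separate the labels, and HADHB over HADHA and HADH over HADHA overlap.

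The enzymes that deliver their substrates were counted beside these genes. The counts of this list and of those below stand beside 21.4% of all genes tested that fell and 21.3% that rose. Of 15 genes tested among the carnitine shuttle, acyl-CoA dehydrogenases and electron transfer flavoproteins, 8 fell and 2 rose (median log2 fold change -0.60). The largest falls were in ACADVL (-1.30) and ACAD10 (-1.08), and CPT1A (0.64) and SLC22A5 (0.72) were those that rose. Other genes of the carnitine system fell, namely CPT1C (-0.84), CPT2 (-0.60) and SLC25A20 (-0.80), which are named here after their values were seen. The peroxisomal counterparts had 4 of 9 genes lower and none higher (median -0.50). Among them ACAA1, the peroxisomal thiolase, had 7.30 ± 0.786 FPKM in tau-labelled and 11.2 ± 0.802 FPKM in control-labelled libraries (SD, log2 fold change -0.73, edgeR adjusted p = 0.00179), and ACOX3, an acyl-CoA oxidase, had a log2 fold change of -1.08.

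Of the crotonase relatives, which share the fold of ECHS1, ECI1 and ECI2, 3 of 5 fell and 2 rose (median -0.73). ECH1, a dienoyl-CoA isomerase that acts on unsaturated chains beside DECR1, had 27.3 ± 4.14 FPKM in tau-labelled and 71.3 ± 2.90 FPKM in control-labelled libraries (SD, log2 fold change -1.50, edgeR adjusted p = 5.3e-05). ECHDC2 fell at a low level (0.0524 FPKM in tau-labelled and 0.280 FPKM in control-labelled libraries, log2 fold change -2.43). ECHDC1, which removes ethylmalonyl-CoA, rose by 0.74 and HIBCH, a hydrolase of valine breakdown, rose by 0.59.

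Of the 7 enzymes tested of ketone bodies and acetoacetyl-CoA, 5 fell and 1 rose (median -0.58). OXCT1, which activates acetoacetate for the thiolase step of ACAT1, had 29.1 ± 2.31 FPKM in tau-labelled and 13.7 ± 2.07 FPKM in control-labelled libraries (SD, log2 fold change 0.97, edgeR adjusted p = 0.000234). BDH1, a hydroxybutyrate dehydrogenase, fell at a level of 0.0162 FPKM in tau-labelled and 0.0739 FPKM in control-labelled libraries (log2 fold change -2.30). In branched-chain amino acid breakdown 6 of 17 genes fell and 1 rose (median -0.09). BCKDHA, a subunit of the branched-chain ketoacid dehydrogenase, had 17.6 ± 2.02 FPKM in tau-labelled and 45.7 ± 1.61 FPKM in control-labelled libraries (SD, log2 fold change -1.49), MCEE, methylmalonyl-CoA epimerase, had a log2 fold change of -1.79, and DLD, the shared lipoamide dehydrogenase, rose by 0.54.

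TRMT10C, which forms mitochondrial RNase P with HSD17B10 and PRORP, had 12.4 ± 0.719 FPKM in tau-labelled and 5.88 ± 0.274 FPKM in control-labelled libraries (SD, log2 fold change 0.96, edgeR adjusted p = 0.000366). PRORP, the nuclease subunit, did not pass (log2 fold change 0.39, edgeR adjusted p = 0.218). Of 9 regulators of the pathway 2 rose and 2 fell (median 0.16), but 6 rose and 1 fell with GC and length offsets, and none passed among those with a mean FPKM of at least 1. The coactivators PPARGC1B and PPARGC1A rose by 1.35 and 0.87 at under 1 FPKM, and the receptor PPARG and the lysosomal regulator TFEB fell by 2.08 and 0.73 on the log2 scale at low levels. With the offsets, 27.2% of all genes rose and 20.8% fell. No list was tested for a difference from the 10 genes or from all genes.

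**Figure D5:**
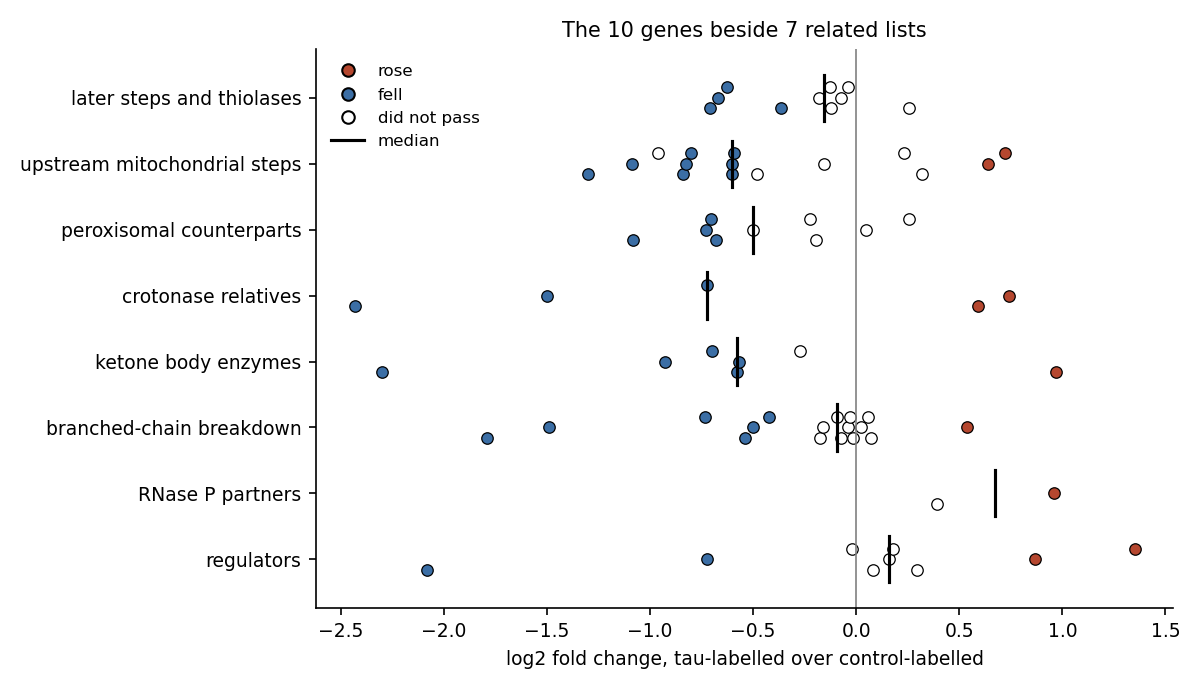
Log2 fold change, tau-labelled over control-labelled, of each gene tested among the 10 later-step genes and 7 related lists (red rose, blue fell, white did not pass; bar: median). The 10 genes have a median of -0.15 with 4 that fell, and the upstream mitochondrial steps a median of -0.60 with 8 that fell and 2 that rose.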

How the data were processed

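The authors' deposited table gives whole-number counts and FPKM per gene and library, one column each, matched to samples by title. The build GRCh38 and the tools HISAT2 2.2.1, StringTie 2.1.6 and cutadapt 1.9 are listed, per the submitters' processing notes, as are DESeq2 and edgeR, without a role. The counting tool, its use of strand and the annotation release were not given in the sources used here. FPKM deposited by the authors was used for levels and ratios, and the counts for tests.

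Counts were filtered with filterByExpr (minimum count 10, minimum total 15), scaled by TMM and compared between labels with edgeR 4.0.16 (R 4.3.3) by glmQLFit and glmQLFTest (two-sided; the label was the one term of the design). The method was tested on simulated data. Few genes were changed in that simulation and no GC trend was put in, so it does not cover data like these. The standard error is the size of the log2 fold change divided by the square root of F, and 95% intervals use the fit's degrees of freedom. Intervals and totals rest on counts without molecular identifiers and cover no further error. Ratios were tested by exact permutation (scipy 1.17.1). GC content is the mean over a gene's GENCODE 29 transcripts.

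The genes and lists were chosen with earlier results of these data known. Named beside the 10 genes are, in each list, the 2 called genes of largest change per direction, MAPT, and overlapping or head-to-head neighbours within 1000 bases; most neighbours with next to no counts are not described, and 1 gene the rule names is not reported here. ECHDC3, STMN2, PTPRC and CD3E were not analysed here. Deviations of same-numbered libraries from their label's mean correlated at -0.04, -0.01 and -0.09. These values show no pairing by number, but deviations from means of 3 libraries cannot exclude one.

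Alternatives were other scalings (RLE, library size), DESeq2 1.42.0, no filter, a mean FPKM of at least 1, limma 3.58.1 on log2(FPKM + 0.5) and log2(FPKM + 0.1), a replicate block, spline offsets for GC content and length, and leaving out each library. The length model of principal transcripts and the omission of tau-labelled library 3 with control-labelled library 1 were added after seeing the data.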

Additional observations from a re-analysis of the deposited data

How the results depend on the processing

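DECR1 and ACAA2 stayed lower and called in all 16 other settings. The number of the 10 genes that fell was 3 or 4 when each library was left out, and none rose then. Over all genes, 2892 to 3920 fell and 2843 to 3803 rose then, of 18610 to 18755 tested. 1 gene rose with library size alone, with limma on log2(FPKM + 0.5) and log2(FPKM + 0.1) (ACAT1, 1 gene each) and with GC and length offsets (HSD17B10, 1 gene). Of all genes, 4590 of 17927 rose with library size alone and 3968 and 3863 of 11129 with the limma settings. With the offsets 27.2% of all genes rose.

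Directions turned for HADHB (0.0715 with library size alone, 0.0777 and 0.0789 with limma), HSD17B10 (0.0362 with library size alone, 0.0321 and 0.0325 with limma, 0.35 with GC and length offsets, and from -0.224 to 0.000203 with a library left out), ECHS1 (0.178 with the offsets) and ACAT1 (-0.00887 with the offsets). The cause was not tested.

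Over all genes, 3822 rose and 3830 fell, and 3968 and 2270 did with limma on log2(FPKM + 0.5), 3863 and 2223 on log2(FPKM + 0.1), so that 63.6% and 63.5% of calls were rises, against 49.9%. The count was 2843 to 3803 rises and 2892 to 3920 falls with each library left out. The replicate block, which takes same-numbered libraries as pairs, gave 3181 and 3139 and ended the call of ECHS1 (adjusted p = 0.105).

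In the upstream list 1 gene rose with a mean FPKM of at least 1 and with both limma settings, where low genes are not tested. Of the crotonase relatives 1 rose with the offsets, and 1 to 2 with a library left out. Of the regulators 0 rose and 0 fell with a mean FPKM of at least 1, 1 rose and 0 fell with either limma setting, 6 rose and 1 fell with the offsets, and 1 to 2 fell with a library left out. Leaving out libraries gave log2 differences of -0.67 to -0.50 for ACAA2 over HADHB, 0.39 to 0.64 for ECI2 over ECI1, -0.29 to -0.15 for ECHS1 over HADHA, 0.05 to 0.14 for HADHB over HADHA and -0.0451 to 0.0853 for HADH over HADHA, whose direction turned.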
